A study of Macaca fascicularis with 38 samples.

Results

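The control animals of cohort 13 were 3 cynomolgus macaques (Macaca fascicularis), X10232, X10233 and X10234, whose prefrontal cortical area 46 was biopsied on 2 occasions. They were found by the header of the deposited table, as the columns marked control, cohort 13 and before or after, and they gave 6 of the 32 libraries in that table and of the 38 samples in the labels. Gene expression was measured by poly-A RNA sequencing and deposited as TPM, a level scaled to transcript length and to a common total in each library. The labels name every sample as taken before or after ethanol, the controls among them, and the word control stands in the table header only. What the control animals were given, the interval between biopsies, and the age and sex of the animals were not stated in the sources at hand, so before and after mean the first and the second biopsy. The 2 groups used for comparison were the 3 control animals of cohort 9 (6 libraries) and the 5 animals of cohort 13 marked as drinkers (10 libraries). These are other animals, with before and after biopsies of the same area. The comparison asks what differs between a first and a second biopsy of this cortical area in animals not marked as drinkers.

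Area 46 lies in the lateral prefrontal cortex, and a biopsy of it holds excitatory and inhibitory neurons together with glia, vessels and blood. Neuronal activity and growth factors signal through the kinase ERK and through cyclic AMP, and both routes switch on immediate early genes such as FOS and the EGR family within a short time. The same signals induce their own brakes. The DUSP phosphatases remove the activating phosphates from ERK, the Sprouty and SPRED proteins act on the steps before it, and the kinase SIK1 inactivates the CRTC coactivators through which cyclic AMP reaches gene expression. The clock repressor PER2 is itself a gene that cyclic AMP can induce.

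The 6 libraries held between 34.4 and 41.7 M reads, recovered from the steps between TPM values, and between 23071 and 23820 genes above 0. The cortical neuron markers were present in all 6, with the excitatory marker SLC17A7 at 472 to 794 TPM and the inhibitory marker GAD1 at 129 to 186 TPM. The libraries were unstranded, so reads of a gene and of an antisense partner cannot be told apart. The after library of X10232 stood apart. Over the 15324 genes tested, whose TPM averaged 1 or more over the 32 libraries, its log2(TPM + 1) values had Pearson correlations of 0.956 to 0.968 with the other 5 libraries, which had 0.974 to 0.993 among themselves. It is also the library whose title carries the RNA code RNA171120RH, where the other 5 carry RNA151215RH. What the code stands for is not given. The 13 mitochondrially encoded genes took 45.9% of TPM before and 37.8% after in X10232, 29.0% and 31.4% in X10233 and 30.7% and 34.7% in X10234. The share was thus lower after in 1 animal and higher in the other 2, with a mean change of -0.598 ± 6.58 percentage points (SD, n = 3; exact sign-flip test, two-sided, p = 1, where the smallest p that 3 pairs allow is 0.25). The median log2 change over all genes tested was 0.24 in X10232, -0.078 in X10233 and -0.099 in X10234, and in X10232 66.4% of genes were higher after against 38% and 31.6% in the others. More than a log2 of 1 separated the biopsies of X10232 for 752 genes above and 442 below, against 60 and 257 in X10233 and 22 and 41 in X10234. The changes of 2 animals were weakly alike across genes, with Pearson's r of 0.11 for X10232 with X10233, 0.28 for X10232 with X10234 and 0.26 for X10233 with X10234. These are descriptions across genes, which are not independent replicates. Leaving out X10232 moved the log2 change of 66 of 170 genes named here by over 1.5 times, 52 of them to a smaller size, and turned the sign of 12 more. For X10233 these counts were 39, 17 and 8, and for X10234 33, 6 and 1. Single values of genes that were not called are to be read with that spread.

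**Figure D1:**
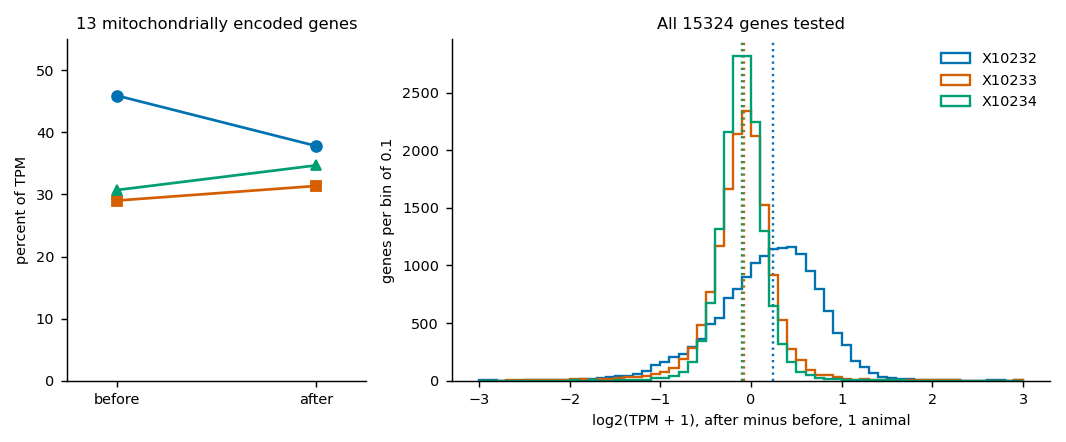
The left panel plots the percent of TPM from the 13 mitochondrially encoded genes in the before and after biopsy of each animal, and the right panel the number of genes by their log2(TPM + 1) change in each animal, with dotted lines at the medians (changes past 3 are drawn in the end bins). X10232 has the widest spread and a median of 0.24, and the other 2 animals have medians just below 0.

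DUSP4, a brake of the ERK pathway, was the gene called between the biopsies. It is a nuclear phosphatase of MAP kinases and went from 1.3 to 14.8 TPM in X10232, from 2.63 to 11.5 in X10233 and from 3.65 to 13 in X10234. The 3 after values lay well above the 3 before values. Its log2(TPM + 1) change was 2.05 ± 0.27 (SE, n = 3 pairs; limma-trend, blocked by animal, adjusted p = 0.00615), and it was the only gene of 15324 to pass at an adjusted p below 0.05, which makes 0.00653% called higher and 0.0% called lower. The SE rests on the spread over all 16 pairs in the fit, not on these 3 pairs alone. Without 1 animal at a time the change of DUSP4 was 1.69, 2.19 and 2.28 (without X10232, X10233 and X10234). With 2 pairs left the call held only without X10234. At an unadjusted p below 0.05, 397 genes were higher (2.59%) and 293 lower (1.91%). Together these were 690 genes, a smaller share than the 0.05 that this threshold lets through where nothing changes. Genes named below for a small unadjusted p or for a lack of overlap are to be read against that. The count of 3 after values all above the 3 before values held for 879 genes (5.74%), and of all below for 430 (2.81%). A change of 1 sign in the 3 pairs was seen for 2077 genes upward (13.6%) and 3040 downward (19.8%). After setting the library medians equal, 8 genes rose (0.0522%) and 0 fell (0.0%), and in limma-voom on the recovered reads 8 of 15311 rose (0.0523%) and 1 fell (0.00653%).

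Of the genes that passed in those 2 fits, SPRY4 and DUSP5 belong to the same list of 13 ERK feedback genes. SPRY4, a Sprouty inhibitor of receptor tyrosine kinase signalling, went from 2.83 to 12.2 TPM in X10232, from 3.8 to 11.8 in X10233 and from 3.99 to 12.3 in X10234. No after value overlapped a before value, and the 3 animals were nearly equal after. Its change was 1.54 ± 0.29 (adjusted p = 0.121 by limma-trend on TPM as deposited, 0.0046 after median scaling, 0.00325 by limma-voom). DUSP5, an ERK phosphatase of the nucleus, went from 2.52 to 7.01 TPM in X10232, from 4.22 to 8.45 in X10233 and from 2.96 to 7.85 in X10234, a change of 1.07 ± 0.22 (adjusted p = 0.23, 0.0435 and 0.0355 in the same order). Over all settings run, each a limma fit, the adjusted p of SPRY4 ran from 0.00325 to 1 and that of DUSP5 from 0.0355 to 1. The remaining ERK genes, chosen for naming after their values were seen, did not pass in any of the 3 fits. DUSP6, the ERK phosphatase of the cytoplasm, had the largest of these, 1.52 ± 0.42, and went from 8.57 to 28.9 TPM in X10232, from 13.4 to 38.4 in X10233 and from 16.9 to 48.2 in X10234. DUSP1 had 1.08 ± 0.44, DUSP2 0.60 ± 0.27, SPRY2 0.70 ± 0.27, SPRED3 0.76 ± 0.28 and SPRED2 0.56 ± 0.32 on the log2 scale, each with 3 after values above the 3 before values. SPRY1 was higher in each pair with overlap (0.36 ± 0.27). The other 3 members did not move together, with -0.20 ± 0.33 for SPRED1 and 0.061 ± 0.19 and 0.49 ± 0.45 for the ETS factors ETV4 and ETV5.

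Of the 13 ERK feedback genes tested, 1 was called higher and 0 lower, and 8 were higher at an unadjusted p below 0.05 (2.59% of all genes). In all 3 pairs 10 were higher (13.6% of all genes), and 9 had no overlap upward (5.74%). This list, like the others, was drawn up with earlier results of these data known. Its counts and medians thus describe its members and are no independent evidence. The list median was a log2 of 0.70, against 0.0061 over all genes tested. By animal it was 1.16, 0.78 and 0.56 in the order X10232, X10233 and X10234. Without X10232 the median was 0.57, against -0.094 over all genes tested. Then 10 members had 2 after values above 2 before values, where 9.71% of all genes did and 29.2% had them below. Summed marker levels moved beside these genes in some cell types. In the order of animals above, the 13 inhibitory neuron markers summed to 1162, 1496 and 1477 TPM before and 1619, 1754 and 1578 after, the 14 microglia markers to 248, 349 and 208 before and 180.4, 275 and 189 after, and the 12 astrocyte markers to 3599, 5591 and 3725 before and 3154, 5208 and 3508 after. The inhibitory sum was thus higher after in each animal, though SST and CCK weigh most in it. In X10234 the median change of the inhibitory markers was 0.0044, and GAD1 was lower after. The microglia and astrocyte sums were lower after in each animal. The mitochondrial share, the oligodendrocyte markers and HBB differed in direction between animals. The part of these shifts in the result was not tested.

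**Figure D2:**
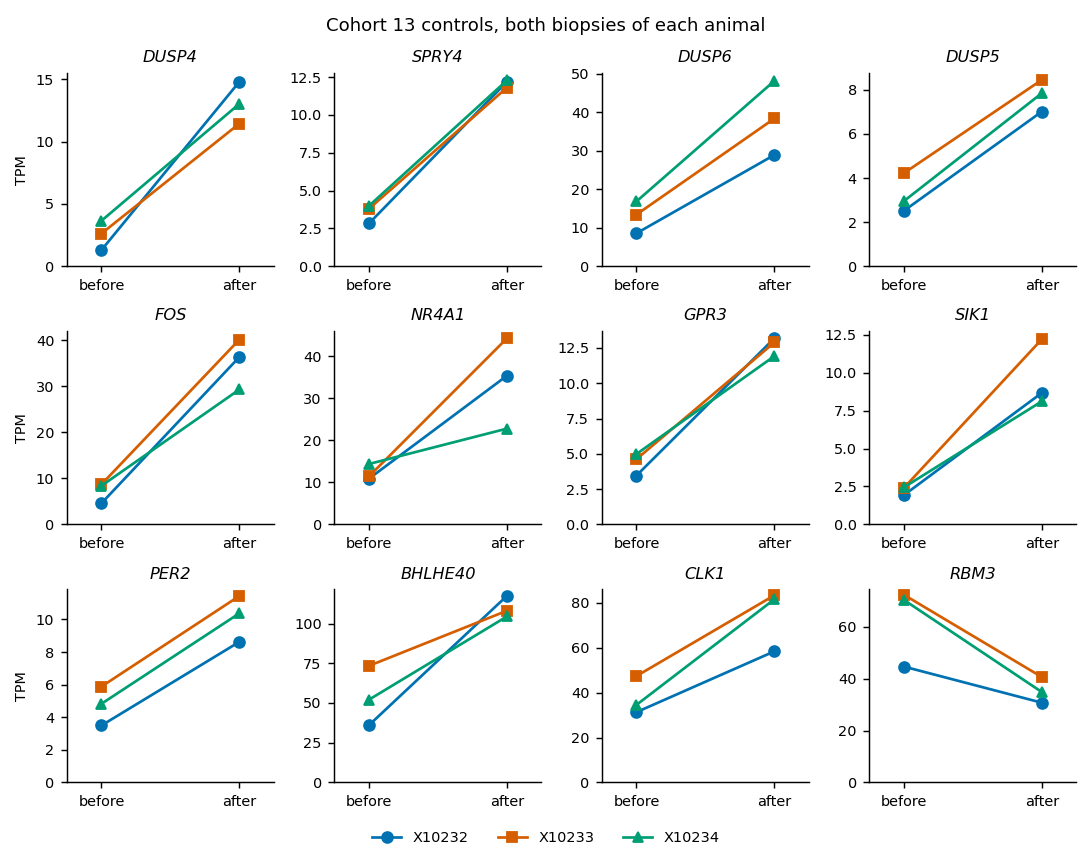
Levels in TPM (vertical axes from 0) of 12 genes in the before and after biopsy of X10232, X10233 and X10234, 1 line per animal. In each of the first 11 panels the 3 after values are above the 3 before values, and for RBM3 all 3 are below.

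Next to them stood genes of the cyclic AMP route. GPR3, a receptor that raises cyclic AMP without a ligand, went from 3.46 to 13.2 TPM in X10232, from 4.62 to 12.9 in X10233 and from 4.98 to 11.9 in X10234. SIK1, the kinase that inactivates CRTC coactivators, went from 1.93 to 8.68 TPM in X10232, from 2.41 to 12.2 in X10233 and from 2.44 to 8.12 in X10234. In both genes the 3 animals were close to each other at each biopsy and the groups did not overlap. The log2 changes were 1.36 ± 0.25 for GPR3 (adjusted p = 0.121 as deposited, 0.00485 median-scaled and 0.00325 by limma-voom) and 1.69 ± 0.34 for SIK1 (adjusted p = 0.189, 0.0435 and 0.0394). The adjusted p over all limma settings run was 0.00325 to 1 for GPR3 and 0.0194 to 1 for SIK1. The phosphodiesterase gene PDE10A had -0.42 ± 0.24 and was lower in each pair. The whole list of 14 tested genes did not share this direction. Its median was 0.086, and 3 members had after values above the before values (GPR3, SIK1 and the coactivator CRTC1), against 5.74% of all genes. In all pairs 3 were higher and 4 lower, against 13.6% and 19.8% of all genes. CREB1 and CREM were lower in 2 of the 3 pairs.

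Most immediate early genes had higher values after in all 3 animals. Their errors were wide, but these come from the spread over all 16 pairs in the fit and not from these 3 alone. FOS, a subunit of the AP-1 transcription factor, went from 4.59 to 36.4 TPM in X10232, from 8.7 to 40.2 in X10233 and from 8.38 to 29.3 in X10234. The lowest after value lay well above the highest before value. The log2 change of 2.17 ± 0.62 had an unadjusted p of 0.00248 by limma-trend and did not pass adjustment (adjusted p = 0.728, from 0.0831 to 1 over all settings run). NR4A1, an orphan nuclear receptor, went from 10.9 to 35.4 TPM in X10232, from 11.4 to 44.3 in X10233 and from 14.4 to 22.8 in X10234 (1.37 ± 0.40, adjusted p = 0.728). EGR2, a zinc finger factor, went from 3.74 to 12.8 TPM in X10232, from 3.0 to 10.4 in X10233 and from 6.72 to 8.83 in X10234 (1.14 ± 0.34, adjusted p = 0.905), and X10234 had the smallest step in both. NPAS4, a factor restricted to active neurons, was named after its values were seen, as were the genes in the next sentence, and went from 0.083 to 3.73 TPM in X10232, from 0.21 to 4.57 in X10233 and from 0.36 to 2.66 in X10234 (1.92 ± 0.77). EGR1 had 1.2 ± 0.40, EGR4 1.01 ± 0.32, JUNB 1.0 ± 0.46, FOSB 1.05 ± 0.58, IER2 0.50 ± 0.29 and the synaptic gene ARC 0.46 ± 0.35, each with no overlap between the biopsies. Of 17 genes tested 0 were called, and 7 had an unadjusted p below 0.05, all of them higher (2.59% of all genes). In all 3 pairs 11 were higher (13.6% of all genes), and 10 had no overlap upward (5.74%). The list median was 0.50, with 1.02, 0.71 and 0.35 by animal, and 0.43 without X10232. Without that pair 11 members had no overlap upward and 1 downward, against 9.71% and 29.2% of all genes. EGR3 (0.09) and NR4A2 (-0.19), of the same families, were lower in 2 of the 3 pairs.

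Clock genes did not share a direction. PER2 went from 3.5 to 8.63 TPM in X10232, from 5.88 to 11.4 in X10233 and from 4.83 to 10.4 in X10234, with no overlap and similar steps in the 3 animals. Its change was 0.97 ± 0.20 (adjusted p = 0.23 as deposited, 0.0268 median-scaled and 0.0154 by limma-voom, 0.0154 to 1 over all limma settings run). BHLHE40, a repressor that answers to both clock and activity signals, went from 36 to 117 TPM in X10232, from 73.4 to 108 in X10233 and from 52.1 to 104 in X10234 (1.07 ± 0.29, adjusted p = 0.726). CIART, a repressor of the clock activators, was lower in X10233 and X10234 and higher in X10232, going from 7.63 to 8.49 TPM in X10232, from 21.3 to 9.14 in X10233 and from 11.6 to 6.1 in X10234 (-0.61 ± 0.26). Of 18 clock genes tested 0 were called, and the median was 0.048. In all 3 pairs 4 were higher and 5 lower, against 13.6% and 19.8% of all genes. No overlap was seen in 2, both upward (5.74% of all genes). Such counts lie near the shares of all genes and are not a result about the clock list. By the sign of the pairs the activator CLOCK, the receptors NR1D2 and RORA, PER3 and BHLHE41 were the 5 that were lower in each.

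Among splicing genes the kinase CLK1, which phosphorylates SR proteins, went from 31.3 to 58.4 TPM in X10232, from 47.4 to 83.4 in X10233 and from 34.6 to 81.6 in X10234. RBM3, an RNA-binding protein induced by cooling, went the other way, from 44.7 to 30.7 TPM in X10232, from 72.3 to 40.6 in X10233 and from 70.4 to 34.8 in X10234. The groups did not overlap in either gene, whose changes were 0.97 ± 0.26 and -0.78 ± 0.19 (adjusted p = 0.726 and 0.683). SRSF5, an SR protein, had -0.55 ± 0.25 and was lower in X10233 and X10234 only. Of 15 genes tested 0 were called, and the median was -0.19. Without overlap 2 were above (CLK1 and CLK4) and 1 was below, against 5.74% and 2.81% of all genes.

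**Figure D3:**
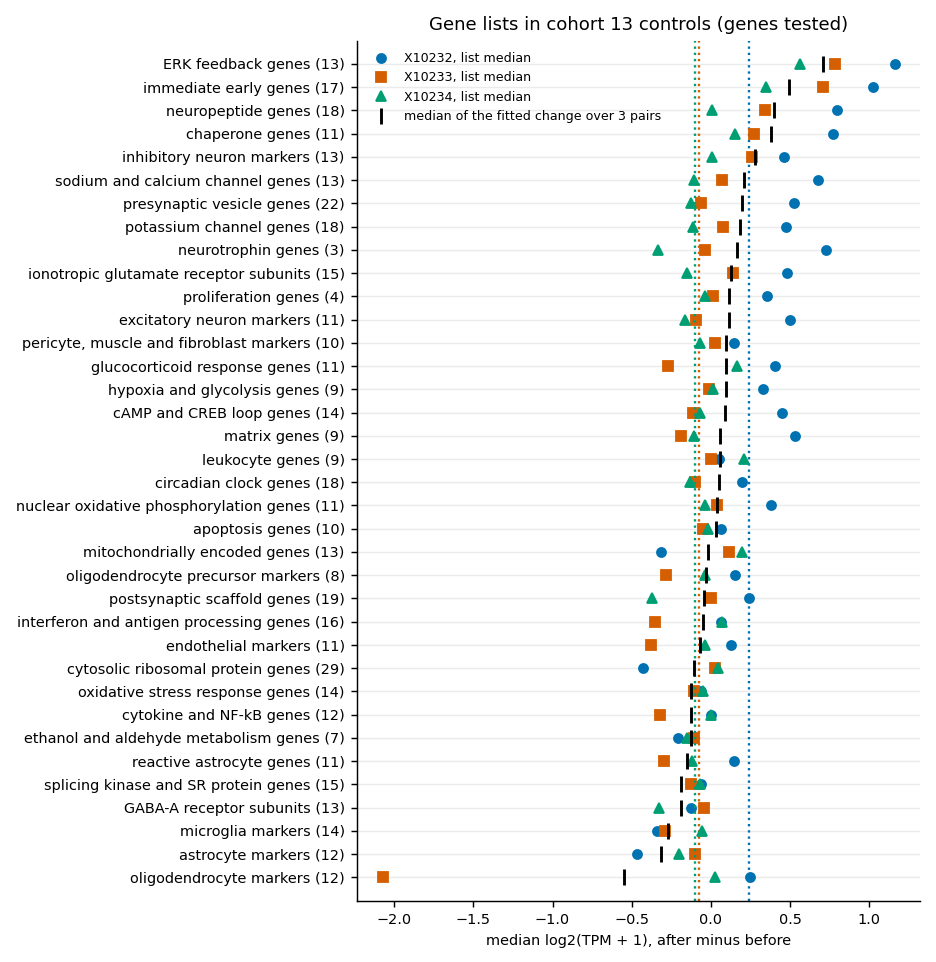
Median log2(TPM + 1) change of each gene list in X10232, X10233 and X10234 (coloured symbols), the median of the change fitted over the 3 pairs (black bars), and the median of all genes in each animal (dotted lines), with the number of genes tested in brackets; red cell genes, with 2 genes tested, are left out. ERK feedback and immediate early genes lie to the right of all 3 dotted lines, and the oligodendrocyte markers of X10233 lie far left at -2.07.

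Chaperones were higher after in most members and in none was the change called. HSPB1, a small heat shock protein, went from 72.8 to 170.3 TPM in X10232, from 52.8 to 133 in X10233 and from 87 to 144 in X10234. DNAJB1, a partner of HSP70, went from 32.7 to 71.6 TPM in X10232, from 54.7 to 82.9 in X10233 and from 61.3 to 71.3 in X10234. HSPA5, the chaperone of the endoplasmic reticulum, went from 99.5 to 207 TPM in X10232, from 159 to 199 in X10233 and from 174 to 216 in X10234. All 3 had no overlap, with changes of 1.08 ± 0.30, 0.64 ± 0.22 and 0.56 ± 0.21 (adjusted p = 0.726, 0.909 and 0.909). Of 11 tested, 8 were higher in all 3 pairs and none lower, against 13.6% and 19.8% of all genes. The median was 0.38, with 0.77 in X10232, 0.27 in X10233 and 0.15 in X10234. Without X10232 it was 0.16. Of 11 glucocorticoid response genes 0 were called, with a median of 0.096. The log2 change was 0.48 ± 0.24 for PER1, 0.58 ± 0.27 for HSD11B1, which regenerates cortisol, and 0.40 ± 0.23 for the cell cycle inhibitor CDKN1A (0.13 without X10232).

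Neuropeptide genes were higher after in X10232 and less so in the other animals. PNOC, the nociceptin precursor, went from 8.5 to 18.4 TPM in X10232, from 14.3 to 23.1 in X10233 and from 14.1 to 18.1 in X10234 (0.67 ± 0.21, adjusted p = 0.909). TAC3, the neurokinin B precursor, went from 10.3 to 20.9 TPM in X10232, from 11.8 to 22.2 in X10233 and from 14.1 to 14.8 in X10234 (0.63 ± 0.22, adjusted p = 0.909). SST, somatostatin, went from 257 to 532 TPM in X10232, from 375 to 477 in X10233 and from 408 to 441 in X10234 (0.50 ± 0.18, adjusted p = 0.909). In each of the 3 the lowest after value was above the highest before value. The same held for VGF (0.94 ± 0.40), the stress peptide CRH (0.54 ± 0.20) and the granin SCG2 (0.39 ± 0.28), named after their values were seen. These were 6 of 18 tested, against 5.74% of all genes without overlap upward. None of the 18 was called or lower in all pairs, where 19.8% of all genes were lower. The median was 0.40, but 0.80, 0.34 and 0.0058 by animal and 0.084 without X10232.

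Neuronal marker lists also had their highest medians in X10232, though single markers differed. SLC17A7, the vesicular glutamate transporter, went from 472 to 794 TPM in X10232, from 758 to 725 in X10233 and from 785 to 689 in X10234 (0.17 ± 0.22, adjusted p = 0.936), higher in 1 animal and lower in 2. GAD1, which makes GABA, went from 129 to 138 TPM in X10232, from 150.2 to 179.6 in X10233 and from 186 to 170.2 in X10234 (0.076 ± 0.21, adjusted p = 0.965). Neither had 1 direction in the 3 animals, and the step of GAD1 was larger in X10233 than in X10232. The transcription factor NEUROD6 had 0.53 ± 0.34 and the transporter SLC17A6 -0.46 ± 0.35. Of 11 excitatory markers 0 were called, and 2 were higher and 1 lower in all pairs (13.6% and 19.8% of all genes). Their median of 0.11 was 0.50 in X10232 and -0.13 without that animal, where all genes tested had -0.094. Of 13 inhibitory markers 0 were called and 6 were higher in all pairs (13.6% of all genes), with a median of 0.28 and of 0.23 without X10232. CALB2, the calretinin gene, had 0.53 ± 0.22, LHX6, a factor of interneurons, 0.47 ± 0.23, and SST is given above. PVALB (0.29 ± 0.25) and CCK (0.33 ± 0.17), named after their values were seen, also had after values above all before values. In bulk samples fewer cells of a type and less RNA per cell cannot be told apart, here and for the glial markers.

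Receptor, channel and synaptic lists held no called gene. Of 13 GABA-A receptor subunits 3 were lower and 1 higher in all pairs, near the 19.8% and 13.6% of all genes, with a median of -0.19. GABRA2 went from 26.1 to 12.1 TPM in X10232, from 24.2 to 21.5 in X10233 and from 35.2 to 23.2 in X10234 (-0.60 ± 0.30, adjusted p = 0.909) and was the only subunit with all after values below the before values, though those of X10233 and X10234 differed by little from the lowest before value. GABRG1 had -0.58 ± 0.30 and GABRA5 -0.44 ± 0.23. Of 15 ionotropic glutamate receptor subunits the median was 0.12, with 0.53 ± 0.43 for GRIN2B, 0.49 ± 0.26 for GRIN2D and 0.35 ± 0.29 for GRIN1. Of 18 potassium channels it was 0.18, with 0.44 ± 0.17 for KCNN2, 0.62 ± 0.27 for KCNC1 and 0.41 ± 0.24 for KCNA4. Of 13 sodium and calcium channels it was 0.21, with -0.67 ± 0.38 for CACNA2D1 (-0.33 without X10232), 0.33 ± 0.32 for SCN2B and 0.32 ± 0.26 for CACNA2D3. Of 22 presynaptic genes it was 0.19, and RIMS1, a protein of the release site, was lower in each animal at -0.70 ± 0.26, where SYN1 had 0.51 ± 0.27 and SYT2 0.83 ± 0.41. Of 19 postsynaptic scaffold genes the median was -0.043, with -0.48 ± 0.28 for NLGN1, -0.34 ± 0.19 for HOMER2 and 0.44 ± 0.27 for DLG3, and of 9 matrix genes 0.058, with 0.84 ± 0.40 for HAPLN4, -0.70 ± 0.44 for ADAMTS4 and -0.28 ± 0.23 for HAPLN1. ADAMTS4 went from 0.744 to 1.52 TPM in X10232, from 8.95 to 1.34 in X10233 and from 2.26 to 1.21 in X10234, and without X10233 its change was -0.013. Among 3 neurotrophin genes tested, BDNF went from 3.89 to 8.31 TPM in X10232, from 7.58 to 7.34 in X10233 and from 11.2 to 8.7 in X10234 (0.19 ± 0.35). The medians of the channel, presynaptic and glutamate receptor lists were positive in X10232 at 0.48 to 0.67, where all genes tested had 0.24. Without that pair they lay between -0.051 and -0.022, slightly above the -0.094 of all genes tested.

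Myelin genes stood apart in a single biopsy. MBP, the myelin basic protein gene, went from 572 to 693 TPM in X10232, from 3638 to 899.7 in X10233 and from 829 to 915 in X10234. The before biopsy of X10233 stood several times above the other 5 libraries. The change of -0.53 ± 0.53 had an adjusted p of 0.915 by limma-trend, and without X10233 it was 0.21. The 12 oligodendrocyte markers summed to 1399, 9580.1 and 2398 TPM before and to 1775, 2169.8 and 2388 TPM after. Their median changes by animal were 0.25, -2.07 and 0.023, and the list median of -0.55 became 0.18 without X10233. OPALIN had -1.01 ± 0.53 and CLDN11 -0.69 ± 0.52. None of the 12 was called or changed in 1 direction in the 3 pairs. Precursor markers had a median of -0.033 over 8 genes, with -0.55 ± 0.29 for OLIG2, -0.69 ± 0.45 for OLIG1 and 0.14 ± 0.16 for NKX2-2. OLIG1 and OLIG2 are also made by mature oligodendrocytes and were highest in that same biopsy, going from 34.4 to 31.2 TPM in X10232, from 150.3 to 59 in X10233 and from 51.6 to 33.4 in X10234 for OLIG1.

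Microglial markers were lower after in most members, without a call. P2RY12, the purinergic receptor of resting microglia, went from 20.8 to 3.41 TPM in X10232, from 21.5 to 17.9 in X10233 and from 19.8 to 14.3 in X10234 (-1.0 ± 0.34, adjusted p = 0.909). The after values all lay below the before values, and X10232 had by far the lowest. Without X10232 the change was -0.35. LAPTM5, a lysosomal membrane protein, went from 24.4 to 11.8 TPM in X10232, from 40.4 to 29.1 in X10233 and from 25.4 to 17.3 in X10234 (-0.66 ± 0.28), and CX3CR1, the fractalkine receptor, from 9.37 to 6.55 TPM in X10232, from 20.6 to 13 in X10233 and from 14.8 to 11.1 in X10234 (-0.49 ± 0.24). AIF1 had -0.46 ± 0.24. Of 14 markers 8 were lower and none higher in all 3 pairs, against 19.8% and 13.6% of all genes. The median was -0.27, with -0.34, -0.29 and -0.054 by animal and -0.26 without X10232. The 14 genes summed to between 208 and 349 TPM before and to between 180.4 and 275 after, with the lower sum after in each animal.

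Astrocyte markers were lower after in all pairs for 6 of 12 members, against 19.8% of all genes, without a call. AQP4, the water channel of astrocyte endfeet, went from 117 to 50.3 TPM in X10232, from 219.9 to 167 in X10233 and from 113 to 91.4 in X10234 (-0.63 ± 0.24, adjusted p = 0.909), and without X10232 its change was -0.35. GLUL, glutamine synthetase, had -0.38 ± 0.20 and S100B -0.31 ± 0.19, both lower in each animal. GFAP, the filament gene, went from 154 to 224 TPM in X10232, from 826 to 748 in X10233 and from 218 to 259 in X10234 (0.21 ± 0.35). The other members held 1 that was higher in all pairs, and the list median was -0.32, with -0.47, -0.098 and -0.20 by animal. Without X10232 it was -0.057, slightly above the -0.094 of all genes tested. Of 11 reactive astrocyte genes 0 were called and 1 was lower in all pairs, against 19.8% of all genes (median -0.15). SERPINA3 (-0.51 ± 0.47), CHI3L1 (-0.37 ± 0.26) and the hyaluronan receptor gene CD44 (-0.50 ± 0.43) were each highest in the before biopsy of X10233, at 32.1, 34.1 and 3.36 TPM.

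Blood and vessel transcripts varied by biopsy. HBB, a haemoglobin chain, went from 176 to 119.6 TPM in X10232, from 25.6 to 1562 in X10233 and from 349 to 912 in X10234, lower after in 1 animal and higher in 2, and its change of 2.24 ± 1.48 had the widest error of the named genes (adjusted p = 0.909). ALAS2, which makes haem in red cells, was at most 1.5 TPM and was higher in each animal (0.65 ± 0.70). Among leukocyte genes CD14, which microglia also express, was at 6.25 to 14.6 TPM, LYZ at 3.11 to 14.3 and CD3E at 1.05 to 2.29. Other members were lower, with S100A9 at 0.194, 0.097 and 0.292 TPM before and 0.296, 1.22 and 1.22 after, S100A8 at 0 in 3 of the 6 libraries, S100A12 at 0 in 5, FCN1 at 0 in 2 and PTPRC (-0.27 ± 0.48) at most at 1.74 TPM. LYZ had -0.71 ± 0.56. The leukocyte list summed to between 23.8 and 38.2 TPM before and to between 15.5 and 33.2 after, and the median of the 9 genes tested was 0.055. Of 11 endothelial markers 3 were lower and 1 higher in all pairs (median -0.072), near the 19.8% and 13.6% of all genes. ABCB1, the efflux pump of the blood-brain barrier, had -0.62 ± 0.33, CLDN5 0.33 ± 0.35 and ABCG2 -0.42 ± 0.37. Of 10 pericyte, muscle and fibroblast markers the median was 0.097, with 0.52 ± 0.52 for ACTA2 (0.084 without X10232), -0.52 ± 0.39 for LUM and 0.30 ± 0.31 for PDGFRB.

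The remaining lists had medians between -0.13 and 0.11 and no called gene. Among cytokine and NF-kB genes CCL2 went from 0.819 to 0.314 TPM in X10232, from 9.03 to 0.645 in X10233 and from 0.206 to 0.483 in X10234 (-0.93 ± 0.57), with the large step in X10233, and SOCS3 had -0.42 ± 0.38 and NFKB2 0.39 ± 0.27. Of the interferon genes IFI44 had -0.62 ± 0.30, IFIT3 -0.38 ± 0.24 and IFI6 0.32 ± 0.19. Of 7 genes of ethanol and aldehyde metabolism tested 4 were lower in all pairs (19.8% of all genes), with a median of -0.13. ALDH1A1, an aldehyde dehydrogenase, went from 244 to 100.5 TPM in X10232, from 259.5 to 227 in X10233 and from 216 to 163 in X10234 (-0.63 ± 0.22, adjusted p = 0.909; -0.30 without X10232), catalase, CAT, had -0.65 ± 0.31, and ALDH2 -0.17 ± 0.18. Of the oxidative stress genes SLC7A11, the cystine transporter, had -0.63 ± 0.27 and GCLC, of glutathione synthesis, -0.53 ± 0.32. Of 14 tested 2 (NQO1 and GCLM) were below the before values without overlap, against 2.81% of all genes. Among 10 apoptosis genes BBC3, a BCL2-family activator of cell death, went from 5.9 to 4.86 TPM in X10232, from 9.56 to 5.48 in X10233 and from 7.48 to 3.59 in X10234 (-0.61 ± 0.20, adjusted p = 0.909), below without overlap, and BCL2 had 0.33 ± 0.19 and BAK1 0.24 ± 0.17. Hypoxia and glycolysis genes included PDK1 (-0.40 ± 0.21), ENO1 (0.32 ± 0.20) and VEGFA (0.28 ± 0.24), and of the 4 proliferation genes tested MCM2, CCNB1 and CCND1 had 0.21 ± 0.23, 0.18 ± 0.24 and 0.047 ± 0.28. Of 29 ribosomal protein genes the median was -0.11, with -0.27 ± 0.17 for RPL15, -0.30 ± 0.19 for RPS18 and -0.26 ± 0.18 for RPL32, and by animal it was -0.43, 0.028 and 0.044. Of 11 nuclear oxidative phosphorylation genes it was 0.039, with 0.40 ± 0.21 for NDUFV1, 0.23 ± 0.18 for ATP5G1 and -0.23 ± 0.18 for NDUFA4. The mitochondrially encoded ND4L (-0.57 ± 0.28), ATP8 (-0.73 ± 0.44) and COX1 (-0.18 ± 0.17) were among the most abundant transcripts, and ATP8 went from 11923 to 2292 TPM in X10232, from 7108 to 7848 in X10233 and from 8293 to 8554 in X10234.

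Outside the lists, a set of genes named after their values were seen had small p in this fit. Upward they included BMP4, a bone morphogenetic protein (1.0 ± 0.23), OLFM4 (0.90 ± 0.17), FNDC9 (0.96 ± 0.21), ANKRD37 (0.79 ± 0.19), BANP (0.73 ± 0.19), PRR15 (0.73 ± 0.19) and C1H1orf64 (1.26 ± 0.33), none called in any of the 3 fits. SLCO4A1, an organic anion transporter, went from 2.4 to 7.89 TPM in X10232, from 3.32 to 5.5 in X10233 and from 3.1 to 5.4 in X10234 (0.87 ± 0.21, adjusted p = 0.534 as deposited, 0.0317 median-scaled and 0.0171 by limma-voom). LOC101925240, a protein-coding gene without a symbol in RefSeq, went from 36.2 to 117 TPM in X10232, from 42.2 to 111 in X10233 and from 60.9 to 96.7 in X10234 (1.23 ± 0.22, adjusted p = 0.121, 0.0215 and 0.014 in that order). Over all limma settings run their adjusted p ran from 0.0171 to 1 and from 0.014 to 1. Downward, TFRC, the transferrin receptor through which cells take up iron, went from 30.2 to 13.3 TPM in X10232, from 66.6 to 30.5 in X10233 and from 61.4 to 28 in X10234. The after value was the lower in each animal by a similar proportion, and the groups just overlapped, with X10232 low at both biopsies (-1.11 ± 0.31, adjusted p = 0.726). RAPGEF4, a cyclic AMP-activated exchange factor, went from 116 to 54.2 TPM in X10232, from 147 to 87.4 in X10233 and from 126 to 75.6 in X10234 (-0.85 ± 0.22). LOC102131789, which RefSeq names CYP26B1, an enzyme that degrades retinoic acid, went from 6.63 to 2.61 TPM in X10232, from 10.1 to 5.9 in X10233 and from 13.3 to 4.56 in X10234 (-1.05 ± 0.27), and RPE65, an enzyme of retinoid metabolism, from 3.91 to 0.466 TPM in X10232, from 5.72 to 3.49 in X10233 and from 3.55 to 1.22 in X10234 (-1.12 ± 0.26). GPR34, a receptor of microglia, had -1.3 ± 0.34, and GPR6, a relative of GPR3, had -0.94 ± 0.27, opposite in sign to GPR3. LOC107129495, which the RefSeq table does not list, went from 1.4 to 0.61 TPM in X10232, from 2.17 to 0.493 in X10233 and from 2.46 to 0.268 in X10234 and fell by limma-voom alone of the 3 fits (adjusted p = 0.0253, against 0.134 as deposited and 0.141 median-scaled, with a range of 0.0253 to 0.861).

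The authors deposited lists of genes higher and lower after in the controls of both cohorts, chosen on these animals among others, so their direction here is no independent evidence. Of the 39 genes on the higher list 35 were higher in all 3 cohort 13 controls (13.6% of all genes), 34 without overlap (5.74%). The median was 0.67, with 1.08, 0.57 and 0.31 by animal. Of the 38 on the lower list 31 were lower in all 3 (19.8% of all genes), 19 without overlap (2.81%), and the median was -0.55. In the authors' deposited table, which pools the controls of both cohorts, the log2 fold change was 2.67 for DUSP4 and 1.33 for GPR3. In the same deposited table from the authors FOS had 1.32 with an adjusted p of 0.345.

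The controls of cohort 9 give the same comparison in 3 other animals. Their libraries held 17.8 to 22.3 M reads, with 38.1 to 50.6% of TPM mitochondrially encoded. In the cohort 13 controls these ranges were 34.4 to 41.7 M and 29.0 to 45.9%. The part of this in the differences was not tested. In cohort 9 DUSP4 went from 1.15 to 12 TPM in X10197, from 1.02 to 9.2 in X10198 and from 1.43 to 10.9 in X10204. Its change was 2.41 ± 0.27, a difference of -0.36 ± 0.38 from cohort 13 (cohort 13 minus cohort 9, with SE, adjusted p = 0.758 by limma-trend). SPRY4, GPR3, SIK1 and BHLHE40 had log2 changes there of 1.74 ± 0.29, 1.15 ± 0.25, 1.34 ± 0.34 and 1.56 ± 0.29, with differences of -0.20 ± 0.41, 0.21 ± 0.35, 0.35 ± 0.48 and -0.48 ± 0.41. PER2 went from 4.06 to 18.2 TPM in X10197, from 5.07 to 14.7 in X10198 and from 3.95 to 12.3 in X10204 (1.57 ± 0.20), and its difference of -0.60 ± 0.29 had an adjusted p of 0.531 in limma-trend. FOS was not alike in the 3 animals, going from 22 to 31.4 TPM in X10197, from 27.8 to 169 in X10198 and from 219 to 33.4 in X10204 (0.13 ± 0.62). Its difference was 2.05 ± 0.88 (adjusted p = 0.531 by limma-trend), and NPAS4 had 1.9 ± 1.09. Across all genes 0 of 15324 differed (0.0%) at an adjusted p below 0.05, with 1375 at an unadjusted p below 0.05, 85 higher and 1290 lower in cohort 13. The median of this difference was -0.20 as deposited and 0.095 after median scaling, which turned the split to 673 and 658, so single differences are to be read against that shift. Limma-voom also called 0.

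Upward, the smallest p of that difference included genes that were near 0 in cohort 13 controls. CXCL8, a chemokine that attracts neutrophils, was at 0.144, 0.612 and 0.0361 TPM before and 0.11, 0.0849 and 0.367 after in cohort 13 and went from 7.26 to 0.24 TPM in X10197, from 2.22 to 0.272 in X10198 and from 38 to 0.586 in X10204 in cohort 9. TNF, an inflammatory cytokine, was at 0.107, 0.455 and 0.134 and 0, 0.105 and 0.231 TPM in cohort 13 and went from 6.16 to 0.268 TPM in X10197, from 2.06 to 1.27 in X10198 and from 9.73 to 0.327 in X10204 in cohort 9. All 3 before biopsies of cohort 9 controls thus held more of both than any library of cohort 13 controls. Both were below 1 TPM in every cohort 13 control library, so they passed the filter and were tested only through levels in other groups. Their cohort 13 changes were -0.072 and -0.14, held near 0 by those low values. The differences of the changes, 2.83 ± 0.54 and 1.84 ± 0.46 (adjusted p = 0.531 and 0.531, limma-trend), thus restate the fall in cohort 9. LOC102118223 (3.02) and LOC102119743 (2.42) had the same pattern, and AZU1, a neutrophil granule protein, had 1.22 ± 0.31. S100A9 went from 14.1 to 1.62 TPM in X10197, from 39.8 to 1.47 in X10198 and from 308 to 7.1 in X10204 in cohort 9. It, S100A8 and MYOC, the latter pair named after values were seen, were the 3 genes called when the control pairs alone entered the fit. In cohort 13 controls S100A9 and S100A8 were also low, at most at 1.22 and 0.428 TPM. The part of these leukocyte transcripts in the values of CXCL8 and TNF was not tested. In the other direction FUT9, a fucosyltransferase, had -2.07 ± 0.58. It was lower after in each cohort 13 control, from 3.01 to 1.36 TPM in X10232, from 5.34 to 3.28 in X10233 and from 6.99 to 3.66 in X10234. In cohort 9 it went from 1.93 to 12.7 TPM in X10197, from 3.28 to 13.9 in X10198 and from 4.36 to 4.65 in X10204, a small step in the last. SERTAD4 (-1.03 ± 0.29), PET117 (-0.94 ± 0.25), and the noncoding LOC101865285 (-1.39 ± 0.39) and LOC102142640 (-1.21 ± 0.30) had negative differences too. All cohort 9 libraries carry the RNA code RNA140430RH and no cohort 13 library does, so code and cohort cannot be told apart.

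**Figure D4:**
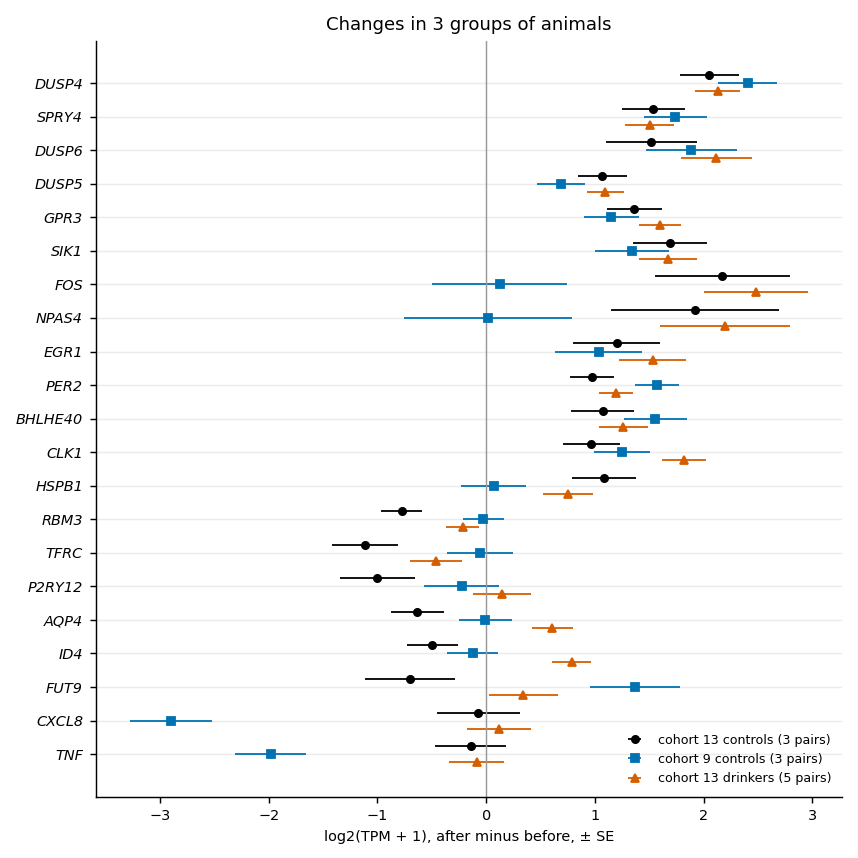
Log2(TPM + 1) change, after minus before, with its SE from limma-trend, for 21 genes in the 3 cohort 13 controls (black circles), the 3 cohort 9 controls (blue squares) and the 5 cohort 13 drinkers (orange triangles). DUSP4 lies between 2.05 and 2.41 in the 3 groups, FOS near 0 in cohort 9 controls, and AQP4 and ID4 on opposite sides of 0 in cohort 13 controls and drinkers.

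Drinkers of the same cohort gave no called difference either, 0 of 15324 genes (0.0%), with 2211 at an unadjusted p below 0.05 and 0 by limma-voom. Their libraries held 17.4 to 41.3 M reads, with 21.7 to 56.4% of TPM mitochondrially encoded. In them DUSP4 ran from 1.13 to 2.96 TPM before (median 1.31) and from 5.73 to 18 after (median 11.4), and the 5 after values did not overlap the 5 before values. Its change was 2.13 ± 0.21, and the difference, controls minus drinkers, was -0.078 ± 0.34 (adjusted p = 0.962 by limma-trend). For SPRY4 the difference was 0.033 ± 0.36, for GPR3 -0.23 ± 0.32, for SIK1 0.023 ± 0.43, for FOS -0.31 ± 0.79, for PER2 -0.22 ± 0.26 and for BHLHE40 -0.19 ± 0.36. Each estimate was within 1 SE of 0, and errors of this size leave room for differences in either direction. CLK1 ran from 10.4 to 35.5 TPM before (median 22.9) and from 74.6 to 90.3 after (median 78.4) in drinkers and its difference was -0.85 ± 0.33 (adjusted p = 0.28 by limma-trend). Over all genes the median difference was -0.15 as deposited, with 60 higher and 2151 lower in controls at an unadjusted p below 0.05, and 0.12 after median scaling, with 1145 higher and 1245 lower.

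The 5 smallest p downward in that difference belonged to genes that had negative changes in controls and positive ones in drinkers. AQP4, given above for the controls, ran in drinkers from 27.4 to 144 TPM before (median 81) and from 95.3 to 184 after (median 108), a difference of -1.24 ± 0.31 (adjusted p = 0.28, limma-trend). ID4, an inhibitor of basic helix-loop-helix factors, went from 61.5 to 23.5 TPM in X10232, from 92.3 to 86.1 in X10233 and from 59.5 to 58 in X10234 in controls and ran from 19.1 to 61.8 TPM before (median 51.4) and from 56.7 to 96.3 after (median 71.7) in drinkers, a difference of -1.28 ± 0.29. In controls the large step was in X10232 alone. TSEN15, of the tRNA splicing endonuclease, had -1.38 ± 0.32, PIGF, of GPI anchor synthesis, -1.71 ± 0.43, and the noncoding LOC107129072 -1.15 ± 0.29. Upward were LOC102129434 (1.78 ± 0.54), LOC107130528, a pseudogene in RefSeq (1.77 ± 0.54), LOC102136839 (1.69 ± 0.48), LOC107127783 (0.76 ± 0.24) and the mitochondrial carrier SLC25A41 (0.69 ± 0.22). RNA codes differ between the biopsies of X10232 (RNA171120RH after) and of the drinkers X10226 and X10227 (RNA171120RH before). With the pairs of a single code alone, a setting added after the data were seen, the differences were -0.64 ± 0.21 for AQP4, -0.59 ± 0.21 for ID4, -0.79 ± 0.30 for TSEN15 and -0.58 ± 0.31 for PIGF, and 0.27 ± 0.33, 0.31 ± 0.32 and 0.35 ± 0.30 for the first 3 upward genes. The sizes were thus smaller in all 7 of these, and LOC107129072, LOC107127783 and SLC25A41 are not given for this setting. By limma-trend 99 genes in place of 2211 had an unadjusted p below 0.05, of which 0 were called. The setting also leaves fewer pairs, as it drops X10232, X10226 and X10227. Leaving out X10232 alone already gave 629 genes, so RNA code and number of pairs cannot be told apart in this fall.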

How the data were processed

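Poly-A RNA was sequenced from area 46 biopsies, unstranded and single-end, per the labels' protocols. The values deposited by the authors are TPM per gene and library. The authors' deposited table also holds log2 fold changes and adjusted p-values (FDR) for controls, per the file headers. STAR 2.5.2b, HTSeq 0.6.1p1 and DESeq2 are named in the submitters' processing notes, with no roles given, and the genome build is not given in the sources used here. Whole reads could be recovered from the TPM steps for 29435 of 29437 genes above 0 in 2 or more libraries (tolerance 1e-06 of a read), which gave 34.4 to 41.7 M reads in the 6 libraries.

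From these, log2(TPM + 1) values of the 15324 genes whose TPM averaged 1 or more were fitted with limma 3.58.1 (limma-trend, R 4.3.3) over all 32 libraries, with each animal as a block and 1 after-minus-before coefficient per group, leaving 12 residual degrees of freedom. Calls used a Benjamini-Hochberg adjusted p-value below 0.05, over all genes tested. Fold changes on this scale understate the change of low genes. The differences from cohort 9 controls and cohort 13 drinkers were contrasts of the same fit, and errors are standard errors. These errors take their spread from all 16 pairs, so they do not measure the spread of the 3 cohort 13 control pairs alone. Pairing comes from the labels, in which both biopsies of a pair carry the same animal number. Deviations from the group means correlated within an animal at r of 0.18 in X10232, 0.32 in X10233 and 0.51 in X10234. By Pearson's r of log2(TPM + 1), the before libraries of X10233 and X10234 were closest to their own after library (0.985 and 0.993). That of X10232 was not, with 0.962 for its own after library, 0.981 for that of X10233 and 0.980 for that of X10234. Tables and figures were made with Python 3.11.15.

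Genes were named by rule: those called, up to 3 members with the smallest p of each of the 37 gene lists, the 5 smallest p in each direction of both differences, and 9 genes always named. Genes named outside it are marked in the text, and 1 gene that the rule names is not reported here. The members and lists were chosen with earlier results of these data known. The alternatives were limma-voom on recovered reads, median scaling, TPM without mitochondrially encoded genes, other filters and pseudocounts, other sets of pairs, no block, and leaving out each pair. The scripts were tested on simulated data. Gene symbols were matched to RefSeq (T2T-MFA8v1.1) for 13490 of the tested genes (88.0%). No sequence is shown and no coordinate is given, since the build is not known.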

Additional observations from a re-analysis of the deposited data

How the results depend on the processing

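The count of genes called between the biopsies was 1 in limma-trend and depended on the setting. It was 6 for TPM without mitochondrially encoded genes, 9 by limma-voom on recovered reads, 8 after median scaling and 5 with the control pairs of both cohorts alone. It was 0 with no filter on low values (1118 genes at an unadjusted p below 0.05), with the 6 libraries alone (1013), with the pairs of cohort 13 alone (357) and with the pairs of a single RNA code, a setting added after the data were seen (399). Leaving out each animal in turn gave 0 to 1 (0 without X10232 or X10233), with 2 pairs left. Without the replicate block the count was 1, as with it. The adjusted p of DUSP4 ran from 4.47e-05 to 0.334 by limma over these settings, and its log2 change from 1.69 to 2.46. The difference from cohort 9 controls had 0 calls in each setting except 3 with the control pairs of both cohorts alone, and the difference from drinkers had 0 in all. The cause of these shifts was not tested.

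The sign of the change turned on leaving out an animal in the following named genes, none of them called. The lowest and highest values over the 3 were -1.17 and 0.094 for ATP8, -0.19 and 0.44 for BDNF, -0.068 and 0.16 for CCND1, -1.07 and 0.0080 for CLDN11, -0.31 and 0.18 for CXCL8, -0.22 and 0.25 for EGR3, -0.21 and 0.22 for ETV4, -0.015 and 0.18 for GAD1, and -0.077 and 0.60 for GRIN1. They were -0.14 and 0.020 for LOC101865285, -0.049 and 0.080 for LOC102119743, -0.083 and 1.2 for LOC102129434, -0.037 and 0.096 for LOC107127783, -0.94 and 0.21 for MBP, -0.89 and 0.070 for ND4L, and -0.52 and 0.16 for NR4A2. They were -0.43 and 0.017 for RPL32, -1.17 and 0.41 for SERPINA3, -0.13 and 0.34 for SLC17A7, and -0.49 and 0.18 for SPRED1. At 34.4 to 41.7 M reads, genes under 1 TPM can rest on few reads, depending on their length.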
